A study of Mus musculus with 6 samples.

Results

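The proteasome subunit genes were taken from the deposited table by gene symbol: Psma, Psmb, Psmc or Psmd followed by a number, without the suffix that marks named pseudogenes. The rule found 40 of 38087 genes, namely 8 Psma, 11 Psmb, 7 Psmc and 14 Psmd genes, and left out 3 pseudogene rows. Of the 40, 39 were tested. Psmb11, which encodes the thymus-specific catalytic subunit, was listed at 0 in all 6 libraries. Psmc3ip matches the rule by its spelling alone: it encodes a partner of the meiotic recombinases and is no subunit, so it is described apart.

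Both groups were macrophages from the bone marrow of C57BL/6J males, 8 to 10 weeks old. M-CSF, the growth factor that drives macrophage differentiation, was given at 10 ng/ml over 7 days, and the cells then spent 24 h without it after re-plating. The first group of 3 libraries was untreated and the second group of 3 libraries received 10 nM RvD1 for 6 h. RvD1 (resolvin D1) is a lipid mediator made from docosahexaenoic acid that signals through the receptor ALX/FPR2. No vehicle is described for the untreated cells. Whether replicates are separate mice, cultures or repeats of 1 culture is not stated, so a p-value here reflects the spread among 3 libraries that may be technical replicates.

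The proteasome degrades proteins tagged with ubiquitin. Its barrel-shaped core is built of alpha rings (Psma genes), which gate the entry, around beta rings (Psmb genes), which hold the proteolytic sites. A regulatory particle caps the barrel: its ring of ATPases (Psmc genes) unfolds substrates and its non-ATPase subunits (Psmd genes) bind and remove ubiquitin. In immune cells interferon signalling replaces the constitutive catalytic subunits Psmb5, Psmb6 and Psmb7 by Psmb8, Psmb9 and Psmb10, which form the immunoproteasome and favour peptides suited to MHC class I molecules. In macrophages the proteasome also degrades the inhibitor of NF-kB and so bears on inflammatory signalling.

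No proteasome gene passed the test after RvD1. Of the 39 tested members 0 were higher and 0 lower (limma, Benjamini-Hochberg adjusted over all 18899 genes tested, threshold 0.05), where 0.561% of all genes tested were called higher and 0.556% lower. The fold changes were small, and most lay below 0. The median log2 fold change over the 39 was -0.10, and 28 of them lay below 0, against a median of 0.00 and 49.2% below 0 over all genes tested. At an unadjusted p under 0.05, 13 members were lower and 1, Psmc6, was higher. That is 33.3% and 2.56% of the members, beside 9.65% and 10.3% of all genes tested. The 3 RvD1 values all lay below the 3 untreated values in 17 members (43.6%; 12.8% of all genes tested) and all above them in 4 (10.3%; 12.6% of all genes tested).

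**Figure D1:**
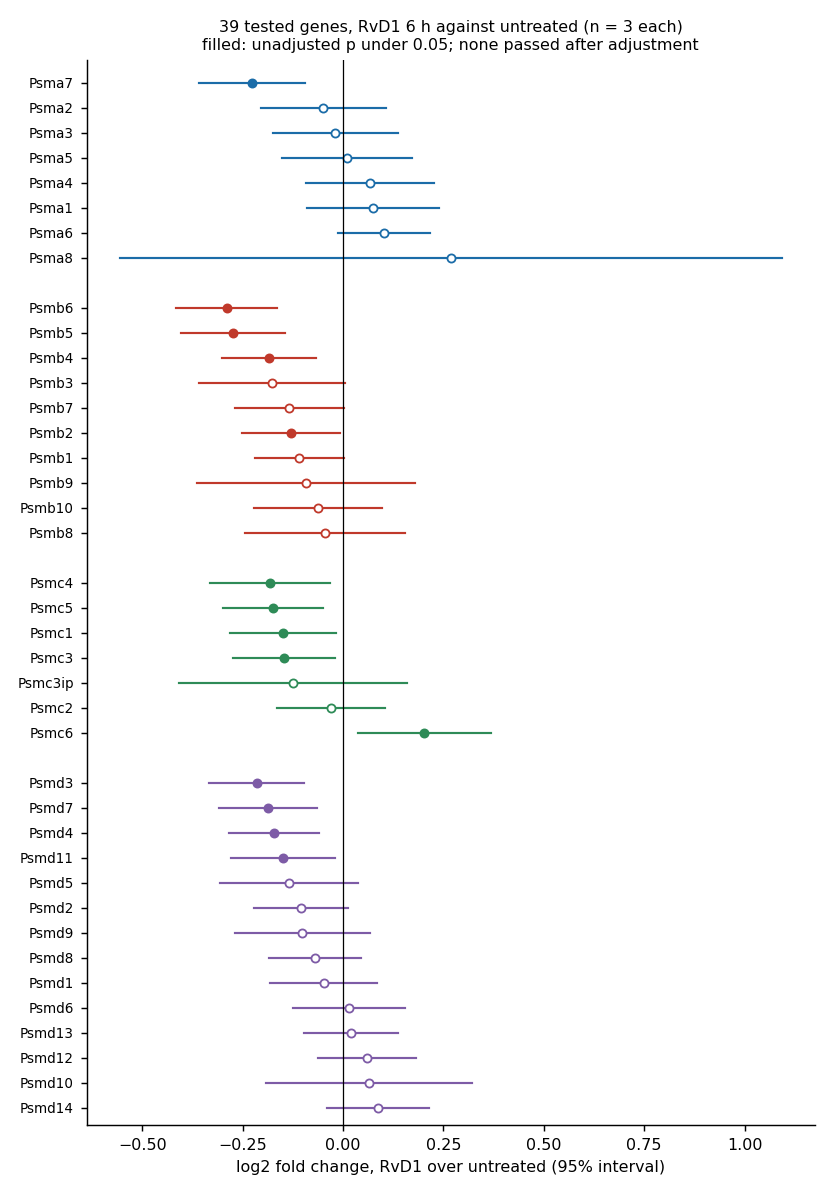
Log2 fold change of each tested gene, RvD1 over untreated, with the 95% interval from the limma fit (n = 3 libraries per group), by family and in order of fold change. Filled points have an unadjusted p under 0.05; the 10 Psmb points all lie below 0, and Psmc6 is the filled point above 0.

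By family, all 10 tested Psmb genes lay below 0 (median log2 fold change -0.13), as did 6 of 7 Psmc genes (median -0.15) and 9 of 14 Psmd genes (median -0.09). Of the 8 Psma genes 3 lay below 0 (median 0.04). The RvD1 values were below all untreated values in 6 Psmb, 4 Psmc, 6 Psmd and 1 Psma gene, and above them in Psma6, Psmc6, Psmd12 and Psmd14. In Psmd12 and Psmd14 the groups were apart only before rounding and touched at 10.36 and 10.34 as printed. The medians describe the families and were not tested against each other.

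**Figure D2:**
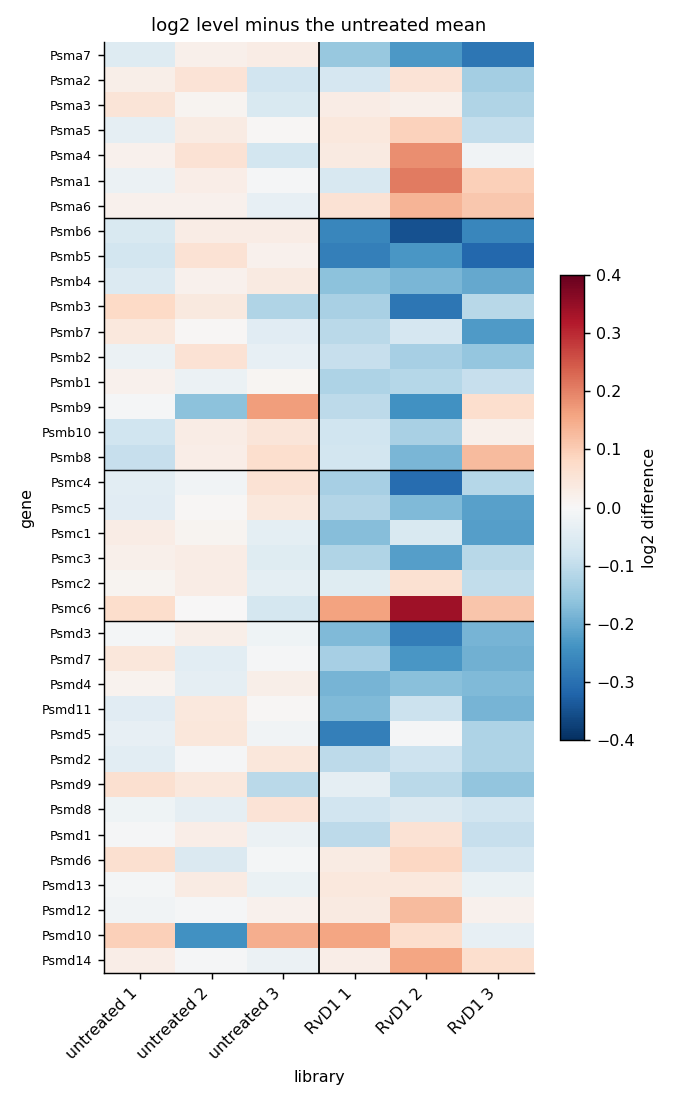
Log2 level of each proteasome gene with an untreated mean of at least 7 in each library, minus the mean of the 3 untreated libraries. Blue marks values below that mean and red values above it; Psmb5, Psmb6 and Psmd3 are blue in all 3 RvD1 libraries, and Psmc6 is red in all 3.

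The 2 lowest log2 fold changes of all members were those of the constitutive catalytic subunits Psmb6 and Psmb5. Psmb6, which carries the caspase-like site, had log2 normalized read values of 10.87, 10.96 and 10.96 in the untreated libraries and 10.67, 10.58 and 10.67 with RvD1. Its fold change was 0.818 (95% interval 0.750 to 0.892; log2 -0.29, SE 0.06), with the smallest p of all members (limma adjusted p = 0.0512). The groups did not overlap, and the adjusted p lay just above the threshold. It lay under the threshold in 3 alternatives without a replicate term: among genes at a mean log2 level of 5 or more (0.0347), after quantile normalization (0.0435) and without RvD1 replicate 1 (0.0490).

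Psmb5, the subunit with the chymotrypsin-like site that proteasome inhibitors used in myeloma bind, had values of 10.36, 10.49 and 10.45 untreated and 10.16, 10.20 and 10.12 with RvD1. Its fold change was 0.827 (0.756 to 0.904; limma adjusted p = 0.0603), again with no overlap. The adjusted p was 0.0423 among genes at a mean log2 level of 5 or more and 0.0485 after quantile normalization. Psmb7, with the trypsin-like site, had values of 10.74, 10.70 and 10.65 untreated and 10.59, 10.63 and 10.47 with RvD1. All 3 RvD1 values were below the untreated ones, but by less (fold change 0.911, 0.829 to 1.00; limma adjusted p = 0.257).

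The inducible catalytic subunits overlapped between the groups. Psmb8, the immunoproteasome partner of Psmb5, had values of 9.43, 9.55 and 9.59 untreated and 9.45, 9.34 and 9.65 with RvD1 (log2 fold change -0.04, SE 0.09; limma adjusted p = 0.820). Psmb9, the partner of Psmb6, had 7.63, 7.47 and 7.80 untreated and 7.53, 7.39 and 7.70 with RvD1 (-0.09, SE 0.12; limma adjusted p = 0.717). Psmb10, the partner of Psmb7, had 8.87, 8.98 and 9.0 untreated and 8.87, 8.82 and 8.97 with RvD1 (-0.06, SE 0.07; limma adjusted p = 0.671). In all 3 genes the highest RvD1 value came from replicate 3 and the lowest from replicate 2.

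Set against its constitutive partner within each library, Psmb8 lay at log2 ratios to Psmb5 of -0.93, -0.94 and -0.86 untreated and -0.71, -0.86 and -0.47 with RvD1. The mean ratio was -0.91 ± 0.04 (SD, n = 3) untreated and -0.68 ± 0.20 with RvD1, a difference of 0.23, and the groups touched at -0.86. For Psmb9 and Psmb6 the mean ratio was -3.30 ± 0.17 untreated and -3.10 ± 0.12 with RvD1, and the groups overlapped. For Psmb10 and Psmb7 it was -1.75 ± 0.11 and -1.68 ± 0.15, also with overlap. The ratios compare reads that are not divided by transcript length and were not tested.

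**Figure D3:**
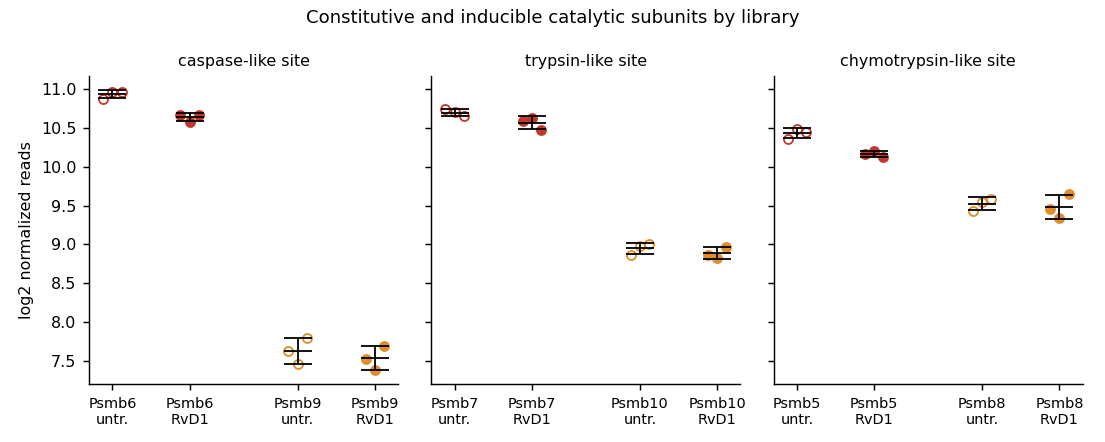
Log2 normalized reads of the constitutive (red) and inducible (orange) catalytic subunits in each library, open for untreated and filled for RvD1; black lines give the mean and SD (n = 3). Psmb5, Psmb6 and Psmb7 are lower in every RvD1 library than in any untreated library, whereas Psmb8, Psmb9 and Psmb10 overlap.

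The other beta subunits are structural. Psmb4 had values of 10.94, 11.01 and 11.03 untreated and 10.83, 10.81 and 10.79 with RvD1 (fold change 0.880, 0.812 to 0.954; limma adjusted p = 0.103), so the groups were apart. Psmb1, Psmb2 and Psmb3 had log2 fold changes of -0.11, -0.13 and -0.18; in Psmb1 and Psmb2 the groups were apart and in Psmb3 they overlapped. Psmb3 has near-identical copies in the table, as given below.

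The promoters of Psmb5 and Psmb6, the members nearest the threshold, are shown beside that of Psmc6, which lay on the other side of 0, and that of Psmc1, an ATPase gene with the same ETS core as Psmc6. The sequences are the 250 bases before the RefSeq start of each gene (GRCm38.p6), 5′ to 3′ on the gene's own strand, with matches to the motifs named below in capitals.
Psmb5 promoter, chr14:54617996-54618245, minus strand: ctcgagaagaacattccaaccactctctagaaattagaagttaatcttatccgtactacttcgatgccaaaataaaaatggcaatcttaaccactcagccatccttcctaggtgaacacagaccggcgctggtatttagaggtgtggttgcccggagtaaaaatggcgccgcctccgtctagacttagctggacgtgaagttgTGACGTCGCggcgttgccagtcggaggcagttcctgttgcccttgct
Psmb6 promoter, chr11:70525107-70525356, plus strand: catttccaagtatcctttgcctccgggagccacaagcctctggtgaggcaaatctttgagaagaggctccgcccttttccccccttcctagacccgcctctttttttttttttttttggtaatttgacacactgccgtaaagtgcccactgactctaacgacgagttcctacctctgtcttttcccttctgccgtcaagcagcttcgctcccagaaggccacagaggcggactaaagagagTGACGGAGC
Psmc6 promoter, chr14:45329574-45329823, plus strand: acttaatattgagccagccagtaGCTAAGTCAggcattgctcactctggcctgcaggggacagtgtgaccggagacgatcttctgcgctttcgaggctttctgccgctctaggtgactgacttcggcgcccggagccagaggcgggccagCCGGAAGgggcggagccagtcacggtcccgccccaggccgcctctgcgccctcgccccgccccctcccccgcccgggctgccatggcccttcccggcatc
Psmc1 promoter, chr12:100109952-100110201, plus strand: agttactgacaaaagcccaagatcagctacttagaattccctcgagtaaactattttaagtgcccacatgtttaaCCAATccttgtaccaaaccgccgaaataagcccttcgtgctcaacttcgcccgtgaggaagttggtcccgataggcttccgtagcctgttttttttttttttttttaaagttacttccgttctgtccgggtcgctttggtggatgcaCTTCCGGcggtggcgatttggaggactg

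The 4 motifs were searched on both strands of windows from 250 bases before to 50 bases after the start. The table matched 33 of the 40 members, with 35 windows in all. The antioxidant response element core, TGACNNNGC, which NRF1 and NRF2 recognise, stood in 5 of the 35 windows (14.3%; 12.4% of all 32851 promoter windows). It lay 47 bases before the start in Psmb5, 9 bases before it in Psmb6 and, on the other strand, 227 bases before it in Psmc6; Psmd9 and Psmd12 held the others.

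The ETS core, CCGGAAG, which ETS family factors bind, was found in 12 of 35 windows (34.3%; 8.86% of all windows). It stood in 4 Psmc (Psmc3ip among them), 6 Psmd and 1 Psma gene and in none of the 8 Psmb genes matched. In Psmc6 it began 100 bases and in Psmc1, on the other strand, 28 bases before the start. The CCAAT box was in 14 windows (40.0%; 37.4% of all) and the core of the interferon-stimulated response element in 3 (8.57%; 3.44% of all), namely those of Psmb3, Psmd4 and Psmd9. The motifs did not overlap in the sequences printed, and a match of letters shows no binding.

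Among the alpha subunits Psma7 stood apart. Its values were 10.58, 10.65 and 10.66 untreated and 10.48, 10.40 and 10.34 with RvD1, with no overlap (fold change 0.854, 0.779 to 0.936; limma adjusted p = 0.0873). The other subunits of the alpha ring had log2 fold changes from -0.05 (Psma2) to 0.10 (Psma6). Psma6 had values of 10.80, 10.80 and 10.75 untreated and 10.84, 10.92 and 10.89 with RvD1, all higher than any untreated value (limma adjusted p = 0.305). Psma8, the testis-specific alpha subunit, was close to the floor with values of 4.61, 4.95 and 3.50 untreated and 4.80, 4.70 and 4.37 with RvD1. Its log2 fold change of 0.27 was the highest of the family and had an interval of -0.56 to 1.09.

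The ATPases of the regulatory particle pointed in both directions. Psmc6 had values of 10.67, 10.60 and 10.53 untreated and 10.76, 10.94 and 10.71 with RvD1, all higher than the untreated ones (fold change 1.15, 1.03 to 1.29; limma adjusted p = 0.176). Psmc4 had 10.66, 10.69 and 10.76 untreated and 10.57, 10.40 and 10.59 with RvD1 (fold change 0.881, 0.795 to 0.977; limma adjusted p = 0.175). Psmc5, the ATPase with the smallest p, had 10.76, 10.81 and 10.85 untreated and 10.69, 10.63 and 10.59 with RvD1 (0.886, 0.814 to 0.965; limma adjusted p = 0.131). Psmc4 and Psmc5 were thus apart in the opposite direction to Psmc6, an ATPase of the same ring. Psmc1 and Psmc3, with log2 fold changes of -0.15 each, were also apart, and Psmc2 overlapped at -0.03.

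Psmc3ip, which is no subunit, had values of 6.17, 6.13 and 6.28 untreated and 6.03, 6.16 and 6.01 with RvD1 (log2 fold change -0.12, SE 0.12; limma adjusted p = 0.630). Its exons overlap those of Mlx on the opposite strand by 385 bases. Without Psmc3ip, 5 of the 6 ATPases lay below 0.

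Among the non-ATPase subunits Psmd3, a structural subunit of the lid, had the lowest fold change. Its values were 11.10, 11.13 and 11.09 untreated and 10.93, 10.83 and 10.92 with RvD1 (fold change 0.861, 0.794 to 0.935; limma adjusted p = 0.0801). Psmd4, a ubiquitin receptor, and Psmd7, the partner of the deubiquitinase Psmd14, were at log2 fold changes of -0.17 and -0.19 with the groups apart (limma adjusted p = 0.113 and 0.111). Psmd14 itself had values of 10.34, 10.31 and 10.29 untreated and 10.34, 10.47 and 10.38 with RvD1, the highest log2 fold change of the family (0.09, SE 0.06; limma adjusted p = 0.434). The Psmd14 groups were apart only before rounding, since 10.34 occurs in each. The large scaffold subunits Psmd1 and Psmd2 were at -0.05 and -0.11. Psmd6, Psmd8, Psmd11, Psmd12 and Psmd13 ranged from -0.15 (Psmd11) to 0.06 (Psmd12), with Psmd8 and Psmd11 apart below. Psmd12 was apart above only before rounding, and its groups touched at 10.36 once rounded. Psmd5, Psmd9 and Psmd10 are chaperones that help to assemble the ATPase ring and leave the finished particle; their log2 fold changes were -0.13, -0.10 and 0.06, and the groups overlapped in all 3.

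Per kilobase of the principal transcript, the members differed far more from each other than between the groups. Psmd8 and Psmb6 had the highest untreated levels, 2474 and 2446 normalized reads per kb, and Psma8 the lowest of those tested, 13.1. The constitutive catalytic subunits exceeded their inducible partners on this scale: Psmb5 was at 1538 and Psmb8 at 452, Psmb7 at 1432 and Psmb10 at 377, and Psmb6 at 2446 and Psmb9 at 147. With RvD1 these levels were 1271 and 440, 1306 and 362, and 2001 and 138. In bulk RNA a level mixes the number of cells of a type with the RNA per cell, which cannot be told apart.

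**Figure D4:**
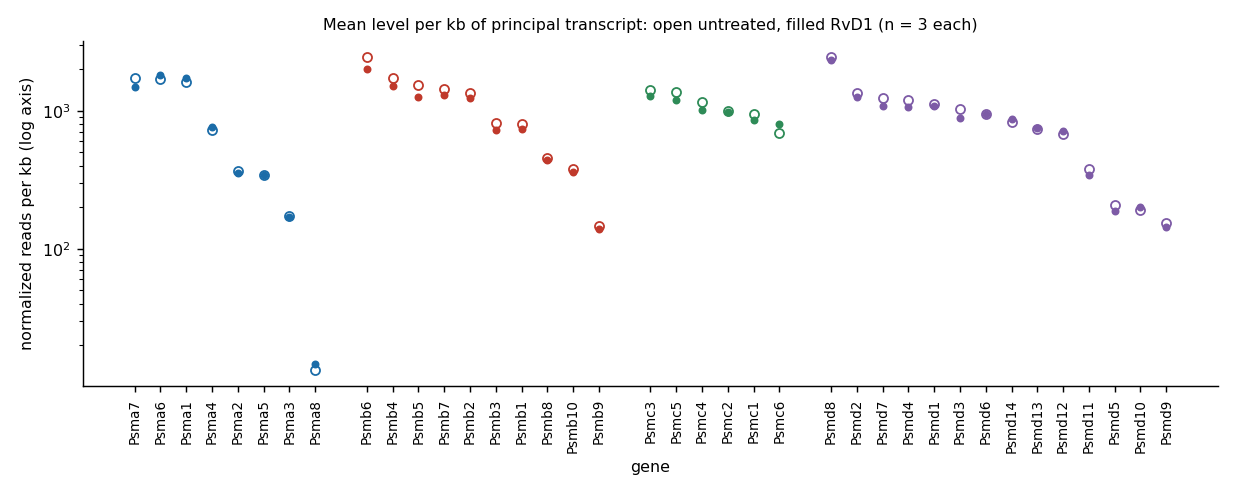
Mean level of each tested subunit or chaperone gene in normalized reads per kb of its principal transcript (log axis), open for untreated and filled for RvD1 (n = 3 libraries each), by family. Psmb8, Psmb9 and Psmb10 lie below the other beta subunits in both groups.

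Some members cannot be measured cleanly in this table. With at least 95% identity over at least 200 bases, 13 members matched transcripts of 21 other genes, 17 of which are in the table; for Psmb7, Psmb9, Psmc3ip, Psmd1 and Psmd13 these include a gene that shares exon bases with the member. Where the counter, which is not given in the sources used here, split reads between near-identical genes, the level of the member is too low. Psma3 held 30.5% of the summed reads of itself and 3 copies in the untreated libraries, and Psma5 held 32.9% with 2 copies. The log2 differences for member and copies summed, with no test, were 0.07 for Psma3 (-0.02 alone), -0.06 for Psma5 (0.01 alone), 0.05 for Psma4 (0.07), -0.17 for Psmb3 (-0.18), -0.12 for Psmc1 (-0.15), -0.08 for Psmd11 (-0.15) and -0.07 for Psmd2 (-0.11). The sum thus changed the sign for Psma3 and Psma5. Psmb5 matched a gene outside the table, with 98.9% identity over 796 bases, so no sum could be formed for it. Psma3, Psmb3 and Psmc1 also matched genes outside the table, which their sums leave out. The exons of Psmb7 overlap those of Nek6 by 405 bases, those of Psmb8 an antisense gene by 498, those of Psmb9 Tap1 by 212, those of Psmc3 Slc39a13 by 215 and those of Psmd13 Sirt3 by 342; no strand setting of the counting is given in the sources used here, so reads there cannot be told apart.

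Members with GC-rich transcripts had lower fold changes. Across the 39 members, log2 fold change and GC content of the principal transcript had a Pearson correlation of -0.69 and a Spearman correlation of -0.65. The points share the same 6 libraries, and the correlation is a description across genes. Over the 13024 genes at a mean log2 level of 5 or more the Spearman correlation was -0.59, so the pattern was that of the whole table. Members under 45% GC had a median log2 fold change of 0.07 (10 members), those from 45 to 50% -0.12 (11), those from 50 to 54% -0.15 (10) and those of 54% and over -0.16 (8). The genes at a mean log2 level of 5 or more in the same ranges had medians of 0.16, 0.06, -0.03 and -0.14. The members were not filtered by level, and those under 45% include Psma8, which lay below it. Members in each range thus had a lower median than the genes at that level there, by the least in the highest range.

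Psmc6, at 37.0% GC, was the member with the lowest GC content, and Psmd3, at 58.3%, the one with the highest. Psmb5 had 56.6%, Psmb6 55.8%, Psmb8 55.8%, Psmb9 55.3% and Psmb10 56.5%, and Psmb7 48.7%, so the inducible subunits had about the GC content of Psmb5 and Psmb6. After length and GC content were fitted in each library and subtracted, with the principal transcript, Psmb6 was at a log2 fold change of -0.12 (limma adjusted p = 0.345), Psmb5 at -0.10 (0.597), Psma7 at -0.15 (0.327), Psmd3 at -0.06 (0.663) and Psmc6 at -0.01 (0.978). Psmb8, Psmb9 and Psmb10 were then at 0.08, 0.04 and 0.09 (limma adjusted p = 0.709, 0.931 and 0.602). The member median was -0.06, 29 of 39 lay below 0, and an unadjusted p under 0.05 was reached by 14 lower and 0 higher members (6.45% and 5.28% of all genes so corrected). The smallest adjusted p of a member was then that of Psmb1 (log2 fold change -0.19, limma adjusted p = 0.186). The lowest log2 fold changes were those of Psmd5 (-0.26, limma adjusted p = 0.193), Psma2 (-0.235, 0.221) and Psmd11 (-0.21, 0.191). The order of the members thus differed from that before the correction. With the longest transcript of each gene in place of the principal one, Psmd11 was lowest at -0.30 (limma adjusted p = 0.0944), followed by Psmb7 at -0.27 (0.137). Psmb6 was at -0.21 (limma adjusted p = 0.142) and Psma7 at -0.06 (0.725). The member median was -0.09, and an unadjusted p under 0.05 was reached by 9 lower and 0 higher members (6.82% and 5.53% of all genes).

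**Figure D5:**
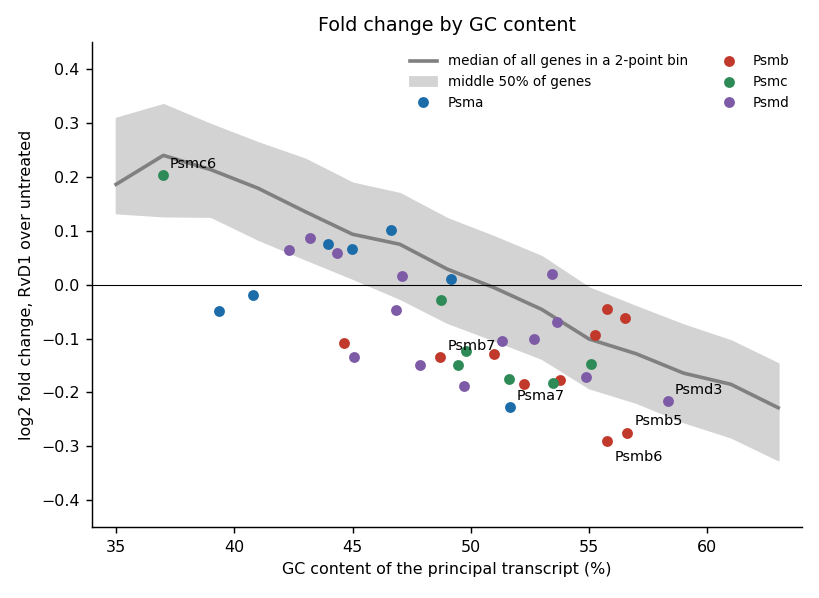
Log2 fold change, RvD1 over untreated, against GC content of the principal transcript for the members at a mean log2 level of 5 or more (points, coloured by family). The grey line and band give the median and the middle 50% of all genes at that level in bins of GC content. They decline from left to right as the members do, and most members lie below the line.

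Genes that work with the proteasome were read from 4 lists. Of 19 activators, assembly factors and associated proteins in the table, 0 were higher and 1 lower, with a median log2 fold change of 0.04. The gene that passed was Adrm1, which encodes a ubiquitin receptor of the regulatory particle that the symbol rule does not take in. It fell from 9.54, 9.55 and 9.48 to 9.26, 9.12 and 9.21 (fold change 0.795; limma adjusted p = 0.0499). The call was lost in 10 of 15 other settings, among them both corrections for length and GC content (limma adjusted p = 0.137 with the longest and 0.399 with the principal transcript) and the omission of any library other than RvD1 replicate 1 (0.125 to 0.186). Adrm1 held 52.2% of the reads summed with its copy Gm9774, and the summed log2 difference was -0.28. The activator Psme4 was at 0.20, the assembly factor Pomp at 0.19, the associated scaffold AI314180 (Ecm29) at 0.15 and Shfm1, the smallest subunit of the lid, at -0.13 (limma adjusted p = 0.164, 0.187, 0.243 and 0.230). The interferon-inducible activators Psme1 and Psme2 were at 0.11 and 0.01.

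Of the 4 genes that control transcription of proteasome genes, 0 were higher and 0 lower; all 4 lay above 0, with a median log2 fold change of 0.15. Nfe2l2 (NRF2) had values of 11.31, 11.29 and 11.39 untreated and 11.55, 11.59 and 11.70 with RvD1, with no overlap (log2 fold change 0.28; limma adjusted p = 0.0609). Its adjusted p lay under the threshold in 2 alternatives without a replicate term, at a mean log2 level of 5 or more (0.0418) and without RvD1 replicate 1 (0.0481). Ddi2, the protease that activates NRF1, was at 0.19 (limma adjusted p = 0.117), Nfe2l1 (NRF1) at 0.12 (0.280) and Ngly1 at 0.05 (0.801). Of the 5 members with an antioxidant response element core, Psmb5, Psmb6 and Psmd9 lay below 0, and Psmc6 and Psmd12 lay above it. A link between these members and the 4 genes was not tested.

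Among genes of ubiquitin supply and delivery, 4 are given by their values, and none of these passed the test. Uba6, a ubiquitin-activating enzyme, was at a log2 fold change of 0.31 (limma adjusted p = 0.101), the shuttle factors Ubqln2 and Ubqln4 were at -0.20 and -0.18 (0.118 and 0.121), and the polyubiquitin gene Ubb was at -0.18 (0.179).

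Of 12 genes of class I antigen presentation, 0 were higher and 0 lower, with a median log2 fold change of 0.04. The peptide-trimming enzyme Erap1 was at 0.27 (limma adjusted p = 0.122), the chaperone Pdia3 at 0.16 (0.197) and Tap2, a subunit of the peptide transporter, at -0.15 (0.507).

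Macrophage markers were high in all libraries: 8 of 9 were in the table, and their summed level was 93400 to 122000 normalized reads untreated and 96900 to 125000 with RvD1. All 5 fibroblast or stroma markers were present in both groups (sums 38600 to 45100 and 34800 to 54400). The 3 endothelial markers summed to 320 to 528 and 412 to 1160, and the 7 neutrophil markers to 2920 to 10300 and 3970 to 10300. Their part in the proteasome values was not tested. The B cell markers summed to 28.5 to 45.7 and 33.7 to 41.9 normalized reads, mostly Cd79b (log2 4.74 to 5.42 over the 6 libraries), while Ms4a1 was listed at 0 in all 6. Of the 3 T cell markers Cd3e and Cd3g were listed at 0 in all 6 libraries and Cd3d was above 0 in 1, at a log2 value of 0.99. Estimated depth was 9.05 to 14.3 M reads untreated and 11.2 to 16.3 M with RvD1, and no member other than Psma8 and Psmb11 was near the floor of the table.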

How the data were processed

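Poly-A RNA of 6 libraries was sequenced (TruSeq kit, 100 to 400 ng total RNA, per the labels' protocols). The submitters' processing notes list TopHat2 2.0.7 and mm10. How reads were counted, annotated and normalized is not given in the sources used here. Per the file headers, the values the authors deposited are normalized; they were read as log2 normalized reads with a floor of 0. Depth was estimated from the step between low values; 40.7% to 51.0% of values worth up to 20 reads were within 0.02 of a whole read, so no count test was run.

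The log2 values of 18899 genes above 0 in at least 3 libraries were tested with limma 3.58.1 (R 4.3.3; trended prior, two-sided, treatment only), adjusted by Benjamini-Hochberg over all genes. The test was checked on simulated data with planted changes larger than those of any member. That check therefore does not bear on changes of the size seen in the members. Groups and replicates came from the titles. The members and gene lists were chosen with earlier results of these data known. Named genes were, by rule, members past the test, the smallest p and the highest and lowest fold change of each family, the catalytic subunits and Psmc3ip, and from each related list those past the test and up to 4 others by smallest p. Other members given single values, and Psme1 and Psme2, were picked after their values were seen. Some genes of the related and marker lists are not reported here. Transcripts, overlaps and GC content came from GENCODE M21 (mm10), found for 36308 of 38087 genes (95.3%); copies were found with BLAST 2.17.0. The principal transcript is the APPRIS principal one. Corrections used splines with 4 degrees of freedom. Figures were drawn with matplotlib 3.10.9.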

Additional observations from a re-analysis of the deposited data

How the results depend on the processing

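No member was called higher in any setting tried. Members called lower numbered 2 of 38 among genes at a mean log2 level of 5 or more, where 246 of all 13176 genes tested were lower. After quantile normalization they numbered 2 of 39, where 129 of all 18899 genes tested were lower. Psmb5 and Psmb6 were the 2 in each of these settings. Leaving out 1 library at a time gave 0 to 1 of 39 members lower. The 1 was Psmb6 without RvD1 replicate 1, where 212 of all 18899 genes tested were lower. Without a filter, with pseudocount 8, with a constant prior and after either length and GC correction alone, 0 members were lower. Same-numbered libraries deviated together in 2 of 3 pairs (r = 0.301, -0.0801 and 0.417), so the numbers were not taken as pairs, and not every library correlated best with its own number. With a replicate block, 7 of 39 members were lower (Psma7, Psmb4, Psmb5, Psmb6, Psmd3, Psmd4 and Psmd7). Of all 18899 genes tested, 1049 were then higher and 847 lower. With the block added to the correction for length and GC content, 7 of 39 members were lower. These were Psma2, Psmb6, Psmb7, Psmc2, Psmd5, Psmd7 and Psmd11, so Psmb6 and Psmd7 were called with and without the correction. Of all 18549 genes so tested, 362 were higher and 408 lower. Nfe2l2 passed the test with the block alone (limma adjusted p = 0.00825) and with block and correction together (0.0109). Over all genes, 106 were higher and 105 lower; these became 5 and 7 without a filter, 218 and 246 at a mean of at least 5, 1 and 0 with a constant prior, 18 and 18 after the length and GC correction, and 15 and 9 with the principal transcript, an alternative chosen after seeing the data. Leaving out 1 library at a time gave 0 to 239 higher and 0 to 212 lower, with the highest counts without RvD1 replicate 1. Family medians kept their sign for Psmb, Psmc and Psmd. The Psmc median was -0.10 after the length and GC correction, with or without the block, and -0.1525 to -0.1148 with 1 library left out. With the principal transcript the medians were -0.0812 for Psmb, -0.0935 for Psmc and -0.0534 for Psmd. The Psma median was below 0 without untreated replicate 3 (-0.02) and without RvD1 replicate 2 (-0.01). The cause was not tested. With 3 libraries per group the 95% intervals of 25 of the 39 members included 0.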
